A study of Mus musculus with 38 samples.

Results

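Integrins are the adhesion receptors through which T cells hold on to matrix, vessel walls and other cells, and 10 of their genes were followed across 38 Affymetrix arrays of mouse CD8 T cell clones. The members were chosen by gene symbol as integrin chains of T cells, with no threshold on their values: the alpha chains Itga1 (CD49a), Itga2, Itga4, Itgae, Itgal, Itgam and Itgax and the beta chains Itgb1, Itgb2 and Itgb7. Each was measured by 1 probe set, so the members are 10 of 20738 genes, and 10 of the 23410 probe sets that carry a gene name. All values are log2 probe set levels, and 1 log2 unit is a doubling. A level of 1 probe set says nothing about another, because each binds its target with its own efficiency, so levels are compared only within a gene.

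The study set out to compare clones of a CD8 T cell type called CD8γ13 in the series with conventional CD8 clones, at rest and after stimulation. Clones sAg1 and sAg3 carry the label CD8IL13+ and are called IL13+ clones here. Clones 8uvmo-2 and 8uvmo-3 carry the label CD8IL13-, are Tc1 clones (CD8 cells of the interferon gamma type) in the design text, and are called IL13-negative here. CD8bm1 is an alloreactive conventional CD8 clone. Each clone was arrayed dormant and after 14 h on plates coated with the anti-CD3 antibody 145-2c11 (coated at 0.5 ug/ml), which stimulates the T cell receptor complex. The 10 groups held 4 arrays each, or 3 in the case of the dormant IL13+ clones, which made 18 dormant and 20 activated arrays. Every group is 1 clone, so a phenotype rests on 2 clones or 1. Whether replicate arrays stem from separate cultures is not stated, and the p-values reflect array-to-array scatter that could be purely technical.

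An integrin is a pair of 1 alpha and 1 beta chain, and both must be made for the receptor to reach the surface. Itgb1 pairs with Itga1 and Itga2 to form collagen receptors, the first of them a known mark of T cells lodged in tissues, and with Itga4 to form VLA-4, which binds VCAM-1 and fibronectin. Itgb7 pairs with Itga4 in the gut homing receptor for MAdCAM-1 and with Itgae (CD103) in the receptor for E-cadherin on epithelium. Itgb2 pairs with Itgal to form LFA-1, the receptor for ICAM-1 on target cells, and with Itgam (CD11b) and Itgax (CD11c), which are best known from myeloid cells and also appear on activated CD8 T cells.

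Within groups, r across probe sets was 0.9858 to 0.9981. The lowest values came from dormant 8uvmo-2, where replicate 1 resembled replicate 3 (r = 0.9974), replicate 2 resembled replicate 4 (r = 0.9973), and the mixed pairs gave 0.9858 to 0.9894. The array medians ran from 6.58 to 6.70 in dormant and from 7.01 to 7.09 in activated arrays, and the median activated minus dormant difference of all named probe sets was 0.352. That shift sat in dim probe sets (0.57 at a level of 5 to 6), was 0 at a level of 11 to 12 and -0.16 at 12 and over. Activation differences are given as deposited and also relative to the clone's own median shift. For bright probe sets, relative values and values after median centring take off more than the shift at their level. Falls of bright genes come out larger in both. Levels below 7 were treated as near background, although no background was measured. Where the lower side of a difference lay below 7 and the higher side did not, the difference is a lower bound. Of 10 listed T cell markers 9 were measured, and 7 or 8 reached 7 in each group: Cd3e was at 12.49 or more, Cd8a at 11.22 or more and Cd8b1 at 11.51 or more in all group means, while Cd5 stayed between 6.04 and 7.06, and Cd2 was below 7 in sAg3 (5.80 dormant) and CD8bm1 (5.59 dormant). In whole-culture RNA, fewer cells with a transcript and less of it per cell cannot be told apart.

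**Figure D1:**
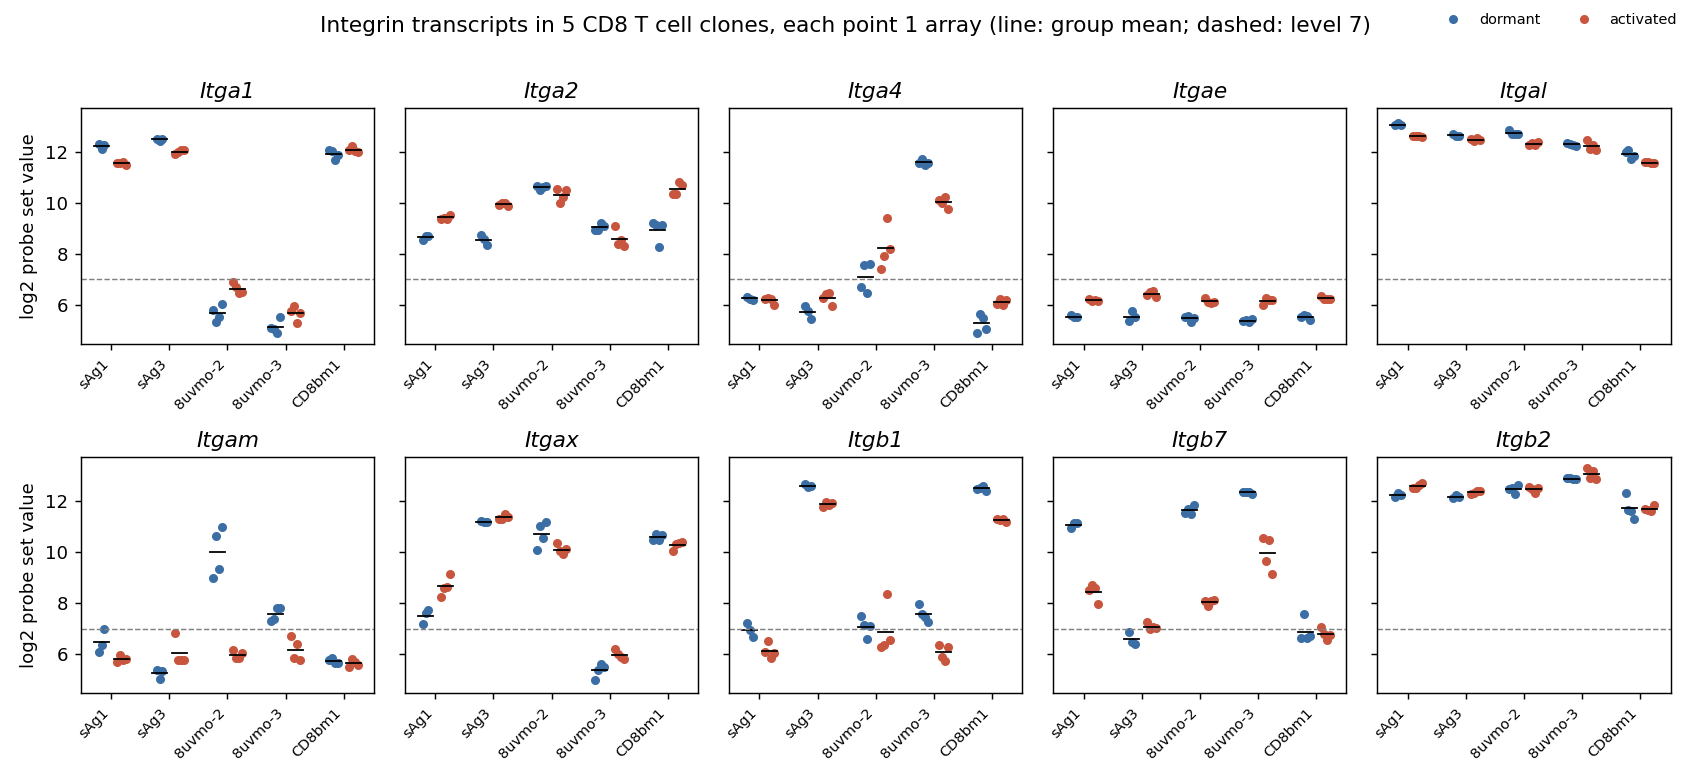
Levels of the 10 integrin genes (vertical axis, log2 probe set value) by clone, dormant (blue) and activated (red); each point is 1 array, a line is the group mean, and the dashed line marks level 7. Itga1 sits near 12 in sAg1, sAg3 and CD8bm1 and below 7 in both 8uvmo clones, Itgb1 is high in sAg3 and CD8bm1, and dormant Itgb7 is high in the 3 other clones.

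The promoters of 3 genes are shown as examples: Itga1 (CD49a) and the beta chains Itgb1 and Itgb7, each of which divided the dormant clones into a high and a low set. Each sequence is the 250 bases before an annotated start, written 5′ to 3′ on the gene's strand. They come from RefSeq tables of build GRCm38.p6, in which 7 of the 10 members had an entry. The Itgb7 window lies inside the gene's annotated span (chr15:102215994-102233405), so it is not the sequence before the gene's outer end. Capitals mark matches, on either strand, to short motifs of transcription factor families: GGAAG (ETS core, CTTCC on the other strand), GGGCGG (Sp1 and KLF box), GGTGTG (a T-box core), TGTGGT (RUNX core) and TGANTCA (AP-1).
Itga1, chr13:115101965-115102214, minus strand: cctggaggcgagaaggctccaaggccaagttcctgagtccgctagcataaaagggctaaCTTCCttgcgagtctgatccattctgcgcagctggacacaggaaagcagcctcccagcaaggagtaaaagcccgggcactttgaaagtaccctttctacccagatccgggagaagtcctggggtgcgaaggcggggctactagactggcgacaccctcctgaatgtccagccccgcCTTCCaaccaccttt
Itgb1, chr8:128685404-128685653, plus strand: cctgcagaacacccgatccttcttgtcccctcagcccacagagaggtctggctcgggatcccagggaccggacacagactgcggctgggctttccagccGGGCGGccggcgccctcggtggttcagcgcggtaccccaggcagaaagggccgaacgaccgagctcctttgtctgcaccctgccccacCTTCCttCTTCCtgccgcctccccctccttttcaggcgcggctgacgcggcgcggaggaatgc
Itgb7, chr15:102231936-102232185, minus strand: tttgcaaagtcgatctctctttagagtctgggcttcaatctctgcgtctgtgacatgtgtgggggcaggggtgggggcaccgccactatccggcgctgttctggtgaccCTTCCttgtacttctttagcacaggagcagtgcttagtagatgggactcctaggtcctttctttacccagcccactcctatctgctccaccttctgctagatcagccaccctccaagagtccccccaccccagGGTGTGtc
The Itga1 window held 2 GGAAG matches. The Itgb1 window held 2 GGAAG matches and 1 GGGCGG match, and the Itgb7 window 1 GGAAG and 1 GGTGTG match. No marked matches overlapped in these 3 windows, and none held TGTGGT or TGANTCA. Among 32851 mouse promoter windows of the same length, 64.1% held GGAAG, 32.7% GGGCGG, 16.3% GGTGTG, 14% TGTGGT and 6.75% TGANTCA. Itgb1 had 21 CpG and 68% G and C, against a median of 6 CpG and 52.4% over all windows, while Itga1 had 10 CpG and 57.6% and Itgb7 5 CpG and 56%. A match is a description of letters, not a site or a cause.

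Itga1, the alpha chain of the collagen IV receptor CD49a/CD29, was high in both IL13+ clones and in CD8bm1 and near background in both IL13-negative clones, in either state. Dormant arrays of sAg1 were at 12.33, 12.13 and 12.27, those of sAg3 at 12.53, 12.45 and 12.51, and those of CD8bm1 at 12.09, 12.03, 11.70 and 11.88. Dormant 8uvmo-2 was at 5.79, 5.31, 5.52 and 6.05, and dormant 8uvmo-3 at 5.10, 5.06, 4.91 and 5.53. No array of the 3 high clones came near one of the 2 low clones. After activation the high clones stayed between 11.48 and 12.25 and the low ones between 5.28 and 6.89. The group means therefore ran in 2 blocks, from 12.50 in dormant sAg3 down to 11.56 in activated sAg1, and from 6.64 in activated 8uvmo-2 down to 5.15 in dormant 8uvmo-3. Within the upper block, dormant sAg3 lay above all others, and the arrays of dormant sAg1, activated CD8bm1, activated sAg3 and dormant CD8bm1 overlapped with their neighbours in that order.

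The difference of Itga1 between the phenotypes was known from earlier results of these data and is given as a description. IL13+ minus IL13-negative was at least 6.96 ± 0.10 (SE) dormant and at least 5.64 ± 0.092 activated. CD8bm1 lay on the IL13+ side. IL13-negative minus CD8bm1 was -6.52 ± 0.11 dormant and -5.95 ± 0.11 activated, each a lower bound of the size. IL13+ minus CD8bm1 was 0.44 ± 0.12 dormant (adjusted p = 0.00236) and -0.31 ± 0.11 activated (adjusted p = 0.0351), both under the minimum of 1 that a call required.

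Activation moved Itga1 little in size, with falls in the IL13+ clones and with rises below level 7 in the IL13-negative clones. The difference was -0.69 ± 0.14 in sAg1 (-1.06 relative to the shift) and -0.47 ± 0.14 in sAg3 (-0.80 relative), and none of the activated arrays of either clone reached its dormant range. CD8bm1 gave 0.17 ± 0.13 (-0.18 relative), 8uvmo-2 gave 0.97 ± 0.13 (0.60 relative) and 8uvmo-3 gave 0.51 ± 0.13 (0.14 relative). In each 8uvmo clone the median shift of probe sets at a level of 5 to 6 was 0.59, more than the 8uvmo-3 difference. As deposited, Itga1 was called in no single clone. After centring it was called in sAg1 at -1.09, and after quantile normalization (-0.72) it was not. The activation effect of the IL13+ clones differed from that of the IL13-negative clones by -1.32 ± 0.14 (limma, adjusted p = 3.02e-09). The IL13-negative side of that difference comes from levels below 7, and after quantile normalization it was -0.75 and not called. Of all genes with a span of at least 2 log2 units over the 10 group means, those most like Itga1 were Lncenc1 (r = 0.951), Akr1c12 (r = 0.941) and Acvrl1 (r = 0.927), as a description over 10 group means from 5 clones.

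Itga2, the alpha chain of the second collagen receptor, lies beside Itga1 on chromosome 13, and it followed another order. It was above 8 on every array, from 8.26 to 10.83. Dormant 8uvmo-2 was highest among dormant groups with 10.67, 10.50, 10.62 and 10.67, while dormant sAg1 was at 8.56, 8.71 and 8.69 and dormant sAg3 at 8.75, 8.59 and 8.35. Dormant 8uvmo-3 (8.94, 8.96, 9.20 and 9.08) was above both IL13+ clones as well. The dormant IL13+ clones were thus lower than the IL13-negative clones, by -1.22 ± 0.12 (limma, adjusted p = 1.34e-10), which is opposite in sign to Itga1. Pelo, the next gene after Itga1 by start position, kept between 8.01 and 9.21 in all group means.

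Activation raised Itga2 in sAg3 and CD8bm1. In CD8bm1 it went from 9.20, 9.13, 8.26 and 9.13 to 10.36, 10.37, 10.83 and 10.72, a difference of 1.64 ± 0.16 (1.29 relative; adjusted p = 4.32e-11). In sAg3 it went to 9.92, 9.99, 10.01 and 9.90, a difference of 1.39 ± 0.17 (1.06 relative; adjusted p = 9.69e-09). In both clones all activated arrays were above all dormant ones. Centring each array on its median lowered the sAg3 value to 0.98, short of a call. In sAg1 the difference was 0.78 ± 0.17 (0.41 relative), in 8uvmo-2 -0.29 ± 0.16 (-0.67 relative) and in 8uvmo-3 -0.47 ± 0.16 (-0.84 relative), none called. The activation effect was larger in the IL13+ than in the IL13-negative clones by 1.47 ± 0.16 (limma, adjusted p = 1.3e-08). With it the phenotype difference went from -1.22 dormant to 0.25 ± 0.11 activated (adjusted p = 0.0933). The IL13-negative side averages unlike clones: 8uvmo-3 minus 8uvmo-2 was -1.57 dormant and -1.75 activated, both called. Against CD8bm1, activated IL13-negative clones were lower by -1.12 ± 0.13 (adjusted p = 1.5e-08), a difference that 8uvmo-3 (mean 8.57) carried. The mean of activated 8uvmo-2 was 10.32 against 10.57 in CD8bm1, and their arrays overlapped.

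Itga4, the alpha chain shared by VLA-4 and the gut homing integrin, was a transcript of the IL13-negative clones and chiefly of 8uvmo-3. Dormant 8uvmo-3 arrays were at 11.57, 11.74, 11.49 and 11.58. Dormant 8uvmo-2 arrays were at 6.70, 7.56, 6.48 and 7.62, with replicates 2 and 4 above replicates 1 and 3, the same sets into which these arrays fell over all probe sets. All arrays of sAg1, sAg3 and CD8bm1 were below 7 in both states, between 4.89 and 6.46. 8uvmo-3 minus 8uvmo-2 was 4.51 ± 0.25 dormant (limma, adjusted p = 9.92e-17) and 1.80 ± 0.25 activated (adjusted p = 4.82e-07). IL13+ minus IL13-negative, which averages these unlike clones, was -3.35 ± 0.19 dormant and -2.92 ± 0.18 activated, lower bounds of the size. IL13-negative minus CD8bm1 was at least 4.07 ± 0.22 dormant (adjusted p = 1.15e-17) and at least 3.02 ± 0.22 activated (adjusted p = 6.05e-14).

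After activation Itga4 fell by 1.56 in 8uvmo-3 (SE 0.25, adjusted p = 1.11e-06), to 10.12, 10.02, 10.25 and 9.77, with no overlap. In 8uvmo-2 it moved the other way, to 7.41, 7.94, 9.40 and 8.21, a difference of 1.15 ± 0.25 (0.77 relative; adjusted p = 9.69e-05) with overlapping arrays. That call rested on single arrays: the difference was 0.76 without activated replicate 3 and 0.95 without dormant replicate 3 (Itga4, activation in 8uvmo-2), and it was also lost after centring (0.75) and quantile normalization (0.96). The difference between both activation effects, a comparison added after these values were seen, was -2.71 ± 0.35 (adjusted p = 5.94e-07) and held without any 1 array (-2.98 to -2.32). Activated 8uvmo-2 replicate 3 also stood apart in dendritic cell markers. Cd74 was at 11.27 there against 8.75 to 9.23 in its 3 companions, H2-Aa at 8.78 against 5.22 to 6.21, and the summed linear level of the 17 measured macrophage and dendritic cell markers was 4630 against 1950 to 2060. The 6 stromal cell markers of this array summed to 1210 against 635 to 705. The part of dendritic or stromal cells in its Itga4 level was not tested. Genes most like Itga4 over the 10 group means were Lgi1 (r = 0.975), Kcnip3 (r = 0.973) and Dhrs3 (r = 0.945), as a description.

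Itgae, the alpha chain of CD103, was below 7 on every array. Dormant group means were 5.39 to 5.54 and activated ones 6.16 to 6.44, and in every clone all activated arrays were above all dormant arrays. The differences of 0.63 to 0.90 per clone stand beside shifts of 0.55 to 0.59 per clone for all probe sets at a level of 5 to 6, and none was called. In sAg3 the difference was 0.90 ± 0.077 and that shift 0.58. Leaving out dormant sAg3 replicate 2 brought the sAg3 difference past 1 and so raised the count of members called in that clone from 1 to 2. No comparison of clones called Itgae.

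Itgal, the alpha chain of LFA-1, was high on every array, from 11.57 to 13.13. Dormant sAg1 was highest at 13.06, 13.13 and 13.05, and activated CD8bm1 lowest at 11.60, 11.61, 11.58 and 11.57. The activated minus dormant differences were -0.45 in sAg1, -0.18 in sAg3, -0.33 in CD8bm1, -0.41 in 8uvmo-2 and -0.07 in 8uvmo-3, all under the minimum of 1. CD8bm1 was the lowest clone in each state: IL13+ minus CD8bm1 was 0.95 ± 0.056 dormant and 0.97 ± 0.053 activated, and IL13-negative minus CD8bm1 0.61 ± 0.053 and 0.70 ± 0.053, with adjusted p of at most 6.73e-12 and none called at the minimum of 1. Without dormant CD8bm1 replicate 2 the dormant IL13+ difference passed it.

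Itgam, the alpha chain of Mac-1, was found above level 7 only in the dormant IL13-negative clones as group means. Dormant 8uvmo-2 arrays were at 8.99, 10.65, 9.33 and 11 and dormant 8uvmo-3 arrays at 7.30, 7.37, 7.82 and 7.79. Replicates 2 and 4 of 8uvmo-2 were again above replicates 1 and 3. Every other array was below 7, and activated 8uvmo-2 was at 6.15, 5.85, 5.84 and 6.02. Itgam thus fell on activation, with differences of -4.03 ± 0.28 in 8uvmo-2 (adjusted p = 2.85e-14) and -1.39 ± 0.28 in 8uvmo-3 (adjusted p = 4.22e-05), lower bounds of the size, and arrays of the states did not overlap in either clone. The activation effects of 8uvmo-3 and 8uvmo-2 differed by 2.63 ± 0.40 (adjusted p = 8.91e-06). Both activated means were below 7 (5.96 in 8uvmo-2, 6.18 in 8uvmo-3). That value therefore follows the dormant means (9.99 and 7.57) and cannot show which clone fell more.

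Dormant IL13+ minus IL13-negative clones differed by -2.93 ± 0.22 in Itgam (limma, adjusted p = 1.52e-13) and activated ones by -0.15 ± 0.20 (adjusted p = 0.66). The activation effects of both phenotypes differed by 2.78 ± 0.30 (adjusted p = 5.88e-09). The IL13+ arrays of both states and the activated IL13-negative arrays were below 7, so this value follows the dormant IL13-negative levels. Against CD8bm1, dormant IL13-negative clones were higher by at least 3.06 ± 0.25 (adjusted p = 7.3e-13). The difference between sAg3 and sAg1 lay below level 7 on both sides. It was -1.22 ± 0.33 dormant (adjusted p = 0.00297) and -0.96 (Itgam, dormant sAg3 minus sAg1) without dormant sAg1 replicate 3, which ended the call. The difference in activation effect between these clones, 1.45 ± 0.43 (adjusted p = 0.0114), was lost without the same array, at 1.19 (Itgam, activation effect sAg3 minus sAg1).

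Because Itgam marks myeloid and NK cells, marker lists of other cells were read beside it. In dormant 8uvmo-2 only 1 of 17 macrophage and dendritic cell markers reached 7, Cd68 at 10.33, which was above 7 in all 10 groups. Adgre1 was at 4.59, Csf1r at 5.76 and Lyz2 at 6.02. The summed linear level was 1960, 2110, 2000 and 2070. Most of that sum is Cd68, so it cannot follow a small change in the other markers. The mast cell gene Cpa3, by contrast, followed Itgam with 9.89, 11.28, 9.55 and 11.59, and the 8 granulocyte and mast cell markers summed to 1300, 2980, 1150 and 4250, against 345 to 551 in all other arrays. Of these 8, Cpa3 and Ly6g (7.76) were above 7, whereas Kit (5.46), Mcpt4 (5.02), Mpo (6.20) and S100a8 (4.50) were not. Of 5 NK cell markers, the receptor gene Klrb1c moved with Itgam (7.26, 8.69, 8.03 and 8.96 in dormant 8uvmo-2, 4.09 to 4.85 in activated 8uvmo-2). Klre1 (8.87 dormant, 8.71 activated) and Klri2 (10.61 and 10.92) stayed near their dormant levels in 8uvmo-2. Both were above 7 in all 10 groups, while Ncr1 (4.96) and Klra8 (4.37) were below 7 in dormant 8uvmo-2. The 5 markers summed to 2480, 2800, 1960 and 2480 there, not in the order of Itgam. Most of that sum is Klri2 and Klre1, so it cannot follow a small change in the other markers. The part of macrophage, mast or NK cell transcripts in the Itgam level was not tested. In dormant sAg1 the order of Itgam (6.07, 6.34 and 6.98) was that of the macrophage marker sum (1800, 2060 and 2940), and Lyz2 was at 9.26. Activated sAg3 replicate 1 had Itgam at 6.83 against 5.76 to 5.78, a marker sum of 3090 against 1580 to 1690, and 9 markers at 7 or more against 1 or 2. Their part was not tested either. Aldh1a2 (r = 0.989), Klrb1c (r = 0.934) and Sox17 (r = 0.934) were most like Itgam over the group means, as a description.

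Itgax, the alpha chain of CD11c and the neighbour of Itgam on chromosome 7, split both phenotypes instead of parting them. Dormant sAg3 was at 11.24, 11.18 and 11.17 and dormant sAg1 at 7.16, 7.61 and 7.74. Dormant 8uvmo-2 was at 10.07, 11.04, 10.57 and 11.19, dormant 8uvmo-3 at 4.97, 5.38, 5.59 and 5.47, and dormant CD8bm1 at 10.46, 10.72, 10.49 and 10.69. In dormant 8uvmo-2, replicates 2 and 4 were again above replicates 1 and 3, as were the granulocyte and mast cell marker sums (2980 and 4250 against 1300 and 1150), whose part in the Itgax level was not tested. The order of the clones was the same in the activated state at its ends, with sAg3 highest (11.30 to 11.48), sAg1 next to last (8.24 to 9.16) and 8uvmo-3 last (5.79 to 6.20). Itgad, a further alpha chain gene next to Itgax, stayed between 7.22 and 7.73.

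Itgax was higher in sAg3 than in sAg1 by 3.69 ± 0.20 dormant (limma, adjusted p = 5.77e-17) and by 2.72 ± 0.18 activated (adjusted p = 5.01e-15). It was lower in 8uvmo-3 than in 8uvmo-2, with differences of -5.37 ± 0.18 (adjusted p = 3.23e-23) and -4.14 ± 0.18 (adjusted p = 1.15e-19), lower bounds of the size. IL13+ minus IL13-negative was 1.32 ± 0.13 dormant and 1.98 ± 0.12 activated, not called because the clones of the sides interleaved. Activated IL13-negative clones were lower than CD8bm1 by -2.24 ± 0.15 (adjusted p = 1.46e-14), a difference that 8uvmo-3 carried: the mean of activated 8uvmo-2 was 10.10 against 10.28 in CD8bm1, and their arrays overlapped. Activation gave 1.15 ± 0.19 in sAg1 (0.77 relative; adjusted p = 2.02e-06), without overlap of arrays. That call ended without dormant replicate 1 or activated replicate 4 (0.98 each), after centring (0.74) and after quantile normalization (0.97). The differences were 0.17 in sAg3, -0.32 in CD8bm1, -0.62 in 8uvmo-2 and 0.61 in 8uvmo-3, none called. The activation effects of 8uvmo-3 and 8uvmo-2 differed by 1.23 ± 0.25 (adjusted p = 0.000457), and by 0.64, not called, after quantile normalization. Tmprss11e (r = 0.956), Tmem40 (r = 0.943) and Haao (r = 0.939) were most like Itgax, as a description.

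Itgb1, the beta chain that Itga1 and Itga2 need, was high in only 2 of the 5 clones. Dormant sAg3 was at 12.69, 12.56 and 12.59 and dormant CD8bm1 at 12.48, 12.50, 12.61 and 12.41. Dormant sAg1 was at 7.23, 6.93 and 6.67, dormant 8uvmo-2 at 7.50, 7.13, 6.58 and 7.08, and dormant 8uvmo-3 at 7.95, 7.55, 7.45 and 7.26. The arrays of 8uvmo-2 overlapped with those of sAg1 and of 8uvmo-3, and all 3 clones lay far below the high ones, so sAg1 combined high Itga1 with an Itgb1 level in the range of 8uvmo-2. Activated sAg3 (11.76 to 11.98) and CD8bm1 (11.18 to 11.31) stayed high, and activated sAg1 (5.85 to 6.52) stayed low.

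The difference between the IL13+ clones in Itgb1, sAg3 minus sAg1, was at least 5.67 ± 0.30 dormant (limma, adjusted p = 2.05e-17) and at least 5.76 ± 0.26 activated (adjusted p = 2.1e-19). IL13-negative minus CD8bm1 was -5.19 ± 0.22 dormant (adjusted p = 3.41e-20) and -4.80 ± 0.22 activated (adjusted p = 4.96e-19), the second a lower bound of the size. The phenotype averages were 2.47 ± 0.20 dormant and 2.53 ± 0.18 activated for IL13+ minus IL13-negative, and neither was called because sAg1 did not lie above both IL13-negative clones. The 1034 named probe sets of chromosome 8, where Itgb1 lies, had a median sAg3 minus sAg1 difference of 0.13 in both states, against 0.03 dormant and 0.048 activated over all probe sets. Nrp1, the neighbour of Itgb1, had another pattern, with 9.82 in dormant sAg1, 8.66 in 8uvmo-2 and 5.06 to 5.22 in the other dormant groups.

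Activated Itgb1 was lower than dormant Itgb1 in the means of all 5 clones. The fall was called in 8uvmo-3 at -1.49 ± 0.26 (-1.86 relative; adjusted p = 4.04e-06) and in CD8bm1 at -1.23 ± 0.26 (-1.59 relative; adjusted p = 6.94e-05), in both without overlap of arrays. The differences in sAg1 (-0.83 ± 0.28), sAg3 (-0.74 ± 0.28) and 8uvmo-2 (-0.20 ± 0.26) were not called, although arrays of the states did not overlap in sAg1 and sAg3. Over the 5 clones the mean was -0.90 ± 0.12 (-1.25 relative; adjusted p = 1.83e-08), short of a call as deposited and called after centring (-1.30) and quantile normalization (-1.06). Activated 8uvmo-2 replicate 3, the array with high dendritic cell markers, was at 8.35 against 6.26 to 6.55 for its companions. Its stromal cell marker sum was also raised, 1210 against 635 to 705, and the part of such cells was not tested. This array set the difference in activation effect between 8uvmo-3 and 8uvmo-2, -1.29 ± 0.37 (limma, adjusted p = 0.0118) with it. Without it the value was -0.80 (Itgb1, activation effect 8uvmo-3 minus 8uvmo-2), not called. Genes most like Itgb1 were Ptger3 (r = 0.961), Tjp1 (r = 0.956) and Itpr3 (r = 0.954), as a description.

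Itgb7, the beta chain of the gut homing and E-cadherin binding integrins, was high where Itgb1 was low. Dormant 8uvmo-3 was at 12.36, 12.36, 12.37 and 12.29, dormant 8uvmo-2 at 11.53, 11.71, 11.50 and 11.84, and dormant sAg1 at 10.93, 11.13 and 11.13. Dormant sAg3 was at 6.88, 6.46 and 6.40, and dormant CD8bm1 at 6.64, 7.56, 6.61 and 6.69. No array of the 3 high clones overlapped with the 2 low ones. Over the 10 group means the correlation of Itgb1 and Itgb7 was -0.73, as a description of 5 clones in paired states.

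**Figure D2:**
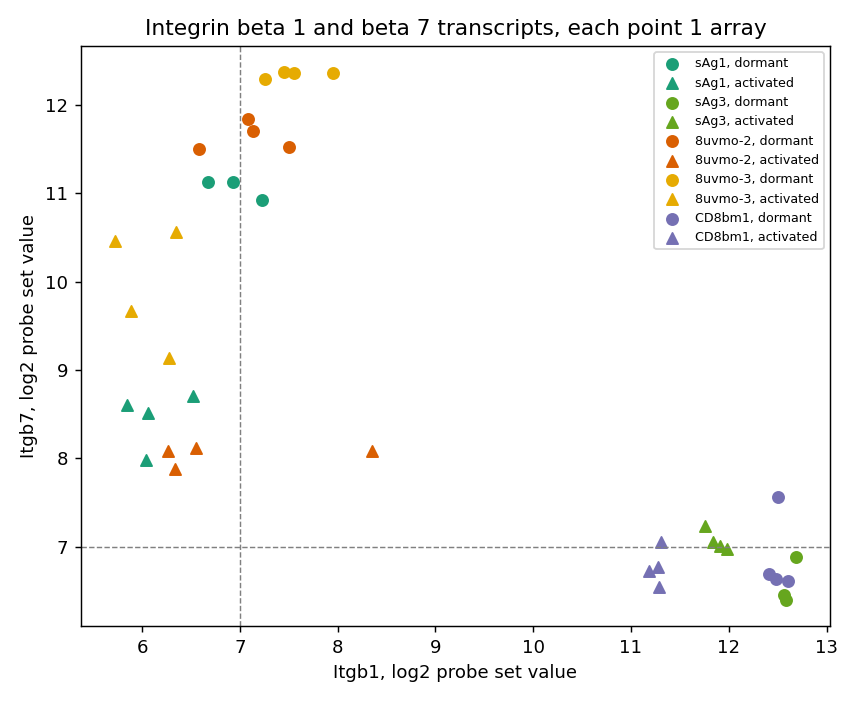
Itgb7 (vertical axis) against Itgb1 (horizontal axis), both in log2 probe set values, 1 point per array, circles dormant and triangles activated, dashed lines at level 7. Arrays of sAg3 and CD8bm1 lie at high Itgb1 and low Itgb7, arrays of sAg1, 8uvmo-2 and 8uvmo-3 at low Itgb1, with Itgb7 lower after activation, and no array is above 10 in both.

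Activation lowered Itgb7 in all 3 clones that held it, with arrays of the states apart in each. In 8uvmo-2 it went to 8.08, 7.88, 8.08 and 8.12, a difference of -3.61 ± 0.21 (-3.98 relative; limma, adjusted p = 1.76e-16). In sAg1 it went to 8.51, 8.71, 8.60 and 7.98, a difference of -2.61 ± 0.22 (-2.99 relative; adjusted p = 4.05e-12). In 8uvmo-3 it went to 10.56, 9.67, 10.46 and 9.14, a difference of -2.39 ± 0.21 (-2.76 relative; adjusted p = 4.07e-12). Activated 8uvmo-3 replicates 2 and 4, the lower arrays for Itgb7, were also the lower ones for Itgam (5.85 and 5.75 against 6.71 and 6.39), Itgal and Itgb2. The summed linear level of 6 stromal cell markers was 1810 and 1550 in them, against 659 and 956 in replicates 1 and 3, and the part of stromal transcripts was not tested. Leaving out 1 array at a time gave -2.59 to -2.11 for Itgb7 in 8uvmo-3. The decrease was smaller in 8uvmo-3 than in 8uvmo-2 by 1.22 ± 0.29 (adjusted p = 0.00287). In sAg3 the difference was 0.49 ± 0.22 and in CD8bm1 -0.10 ± 0.21, neither called, and sAg3 minus sAg1 in activation effect was 3.10 ± 0.32 (adjusted p = 2.33e-09). These 3 calls held with each array left out, after centring and after quantile normalization.

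Differences between clones in Itgb7 were wide at rest and narrower after activation, except between the 8uvmo clones. sAg3 minus sAg1 was -4.48 ± 0.24 dormant (adjusted p = 2.68e-17), a lower bound of the size, and -1.38 ± 0.21 activated (adjusted p = 1.32e-06). IL13-negative minus CD8bm1 was at least 5.12 ± 0.18 dormant (adjusted p = 6.93e-23) and at least 2.22 ± 0.18 activated (adjusted p = 1.35e-12). IL13+ minus IL13-negative, an average over the unlike clones sAg1 and sAg3, was -3.17 ± 0.16 dormant (adjusted p = 3.37e-18) and -1.24 ± 0.15 activated, the second not called because the clones of the sides overlapped. 8uvmo-3 minus 8uvmo-2 widened instead, from 0.70 dormant, not called, to 1.92 ± 0.21 activated (limma, adjusted p = 3.37e-09). Acss1 (r = 0.978), Sdr16c5 (r = 0.967) and Dpp4 (r = 0.966) were most like Itgb7, and Dpp4, the surface peptidase CD26, was at 10.68 in dormant sAg1, 11.41 in 8uvmo-2 and 12.45 in 8uvmo-3 against 5.62 in sAg3 and 5.47 in CD8bm1.

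Read by receptor, the group means of both chains were above 7 in different clones. Both chains of the collagen receptors, Itga1 or Itga2 with Itgb1, were above 7 in sAg3 and CD8bm1 in both states. Itga2 and Itgb1 were also both above 7 in dormant 8uvmo-2 and 8uvmo-3, where Itgb1 was at 7.07 and 7.55. In sAg1 Itga1 and Itga2 were above 7 and Itgb1 was at 6.94 dormant and 6.12 activated. Both chains of the gut homing receptor, Itga4 with Itgb7, were above 7 in 8uvmo-3 in both states and in activated 8uvmo-2. In dormant 8uvmo-2 the Itga4 mean was 7.09, but replicates 1 and 3 were below 7 and replicates 2 and 4 above. In sAg1 Itgb7 was above 7 and Itga4 was not, and with Itgae below 7 in every group no alpha chain among the members known to pair with Itgb7 was above 7 there. Protein at the surface was not measured.

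Itgb2, the beta chain of LFA-1 and of the Itgam and Itgax receptors, was high on every array, from 11.32 to 13.30. Dormant CD8bm1 was at 12.31, 11.67, 11.62 and 11.32 and dormant 8uvmo-3 at 12.90, 12.90, 12.87 and 12.86. Activated 8uvmo-3 was highest, with 13.30, 12.92, 13.17 and 12.88. Activation differences per clone ran from -0.03 to 0.34, and none was called. IL13-negative minus CD8bm1 was 0.95 ± 0.098 dormant, not called, and 1.07 ± 0.098 activated, called (limma, adjusted p = 3.35e-11), and the activated arrays of both 8uvmo clones were above those of CD8bm1.

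Counted over the 10 members, activation called few of them. Of all named probe sets, 6.19% were called for the mean over the 5 clones (4.56% higher, 1.64% lower), and limma called 0 members. Unadjusted and adjusted p were each under 0.05 for 8 members. Adjusted p alone was under 0.05 for 90.3% of all named probe sets, so that count is not a result about the members. Itgb7 (-1.64 ± 0.096) and Itgam (-1.07 ± 0.13) passed the minimum of 1 but did not move in an equal direction in all clones. In sAg1 limma called 1 member higher and 1 lower, where 10.8% of all probe sets were called (7.22% higher, 3.62% lower). In sAg3 it called 1 member higher (5.03%, with 4.09% higher and 0.94% lower). In 8uvmo-2 it called 1 higher and 2 lower (11.9%, with 7% higher and 4.87% lower), and in 8uvmo-3 4 lower (10.1%, with 6.19% higher and 3.86% lower). In CD8bm1 it called 1 higher and 1 lower (7.25%, with 4.58% higher and 2.67% lower). The median absolute difference of the members was 0.67 in sAg1, 0.52 in sAg3, 0.32 in CD8bm1, 0.65 in 8uvmo-2 and 0.69 in 8uvmo-3, against 0.48, 0.41, 0.46, 0.50 and 0.49 over all probe sets. After centring, the sAg1 count became 0 higher and 4 lower, where 10.3% of all probe sets were called: Itga1 (-1.09), Itgam (-1.06), Itgb1 (-1.23) and Itgb7 (-3.02). Of these, Itga1 was not called after quantile normalization (-0.72). As deposited, the counts in sAg1, sAg3 and CD8bm1 are near the background and are not a result about the members.

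**Figure D3:**
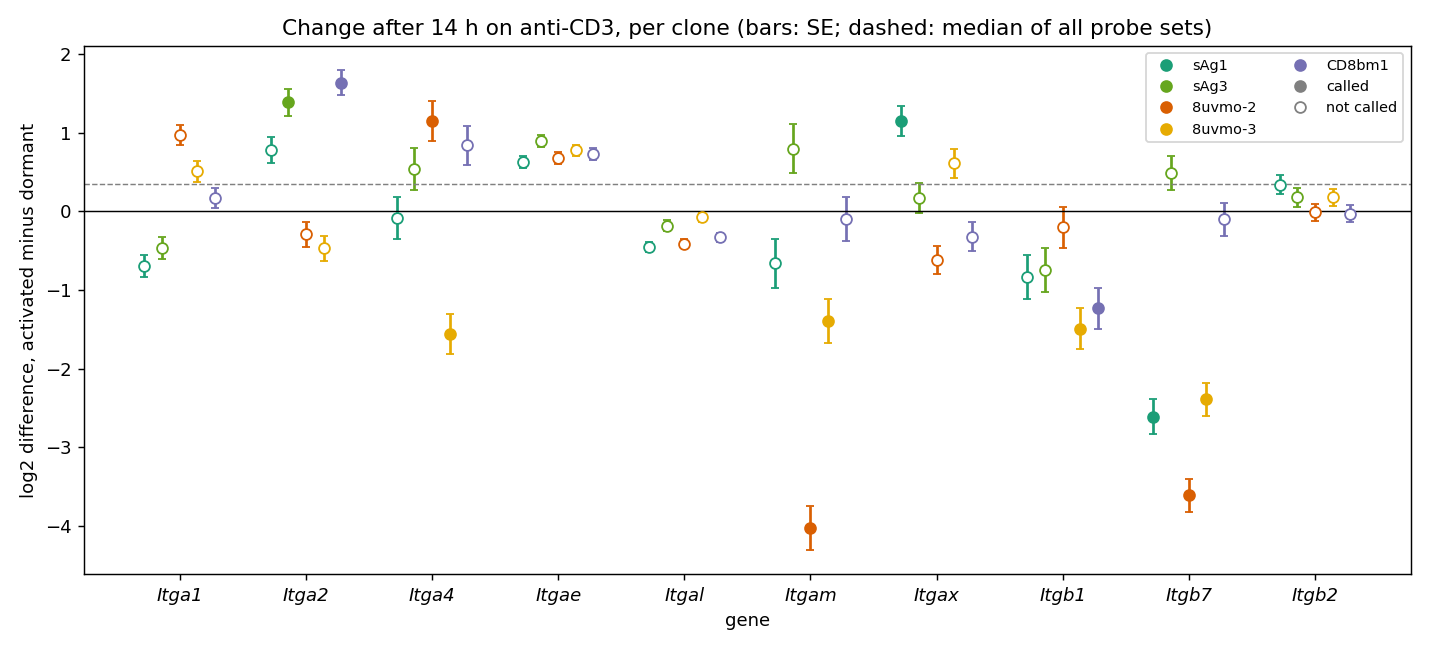
Activated minus dormant log2 difference (vertical axis) of each integrin gene in each clone; points are fitted differences, bars are SE, filled points are called, and the dashed line is the median of all probe sets (0.352). Itgb7 is far below 0 in sAg1, 8uvmo-2 and 8uvmo-3 and near 0 in sAg3 and CD8bm1, and Itga4 is above 0 in 8uvmo-2 and below in 8uvmo-3.

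Between clones, the count of members called ran from 0 to 7 by comparison. Dormant IL13+ minus IL13-negative called 5 members, Itga1 higher and Itga2, Itga4, Itgam and Itgb7 lower, where 3.35% of all probe sets were called (1.02% higher, 2.33% lower). The activated comparison called 2, Itga1 higher and Itga4 lower (1.75%, with 0.666% higher and 1.08% lower). Dormant IL13-negative minus CD8bm1 called 3 higher and 2 lower (7.37%, with 4.02% higher and 3.35% lower), and the activated comparison 3 higher and 4 lower (4.72%, with 2.6% higher and 2.11% lower). Within the IL13+ phenotype, sAg3 minus sAg1 called 2 higher and 2 lower at rest (7.53%, with 3.78% higher and 3.75% lower) and 2 higher and 1 lower after activation (5.03%, with 2.43% higher and 2.61% lower). Within the IL13-negative phenotype, 8uvmo-3 minus 8uvmo-2 called 1 higher and 3 lower at rest (4.59%, with 2.06% higher and 2.53% lower) and 2 higher and 2 lower after activation (3.1%, with 1.44% higher and 1.66% lower). These comparisons share samples with each other and are not independent. The median absolute difference of the members was 1.89 against 0.11 over all probe sets for dormant IL13+ minus IL13-negative, 2.81 against 0.13 for dormant IL13-negative minus CD8bm1, and 0.47 against 0.16 for dormant sAg3 minus sAg1. With the 4 clone means in place of arrays as replicates, Itga1 alone among the members kept its call for IL13+ minus IL13-negative, in each state.

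IL13+ minus CD8bm1 called 0 members with limma in either state, where 7.25% of all probe sets were called dormant (3.14% higher, 4.11% lower) and 3.66% activated (2.01% higher, 1.65% lower). Unadjusted p was under 0.05 for 8 members dormant and 6 activated. Adjusted p alone was under 0.05 for 7 dormant and 6 activated, where 41.1% and 29.5% of all named probe sets passed it. Itgb1 (-2.72 ± 0.24 dormant, -2.27 ± 0.22 activated) and dormant Itgb7 (1.95 ± 0.19) and Itgax (-1.24 ± 0.16) passed the minimum of 1, but the means of sAg1 and sAg3 lay on unlike sides of CD8bm1. For dormant Itgb1 (12.61 in sAg3, 12.50 in CD8bm1) and dormant Itgb7 (6.58 and 6.88) the arrays of sAg3 and CD8bm1 overlapped, and sAg1 stood apart from both. Activated Itgb7 was at 0.99 ± 0.18 and was called when activated sAg1 replicate 4, sAg3 replicate 2 or CD8bm1 replicate 1 was left out. The activation effects differed in 3 members between the phenotypes, 2 higher and 1 lower (1.95% of all probe sets, with 1.39% higher and 0.555% lower). They differed in 2 between sAg3 and sAg1, both higher (5.19%, with 2.52% higher and 2.67% lower), and in 5 between 8uvmo-3 and 8uvmo-2, 3 higher and 2 lower (2.42%, with 1.19% higher and 1.23% lower).

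**Figure D4:**
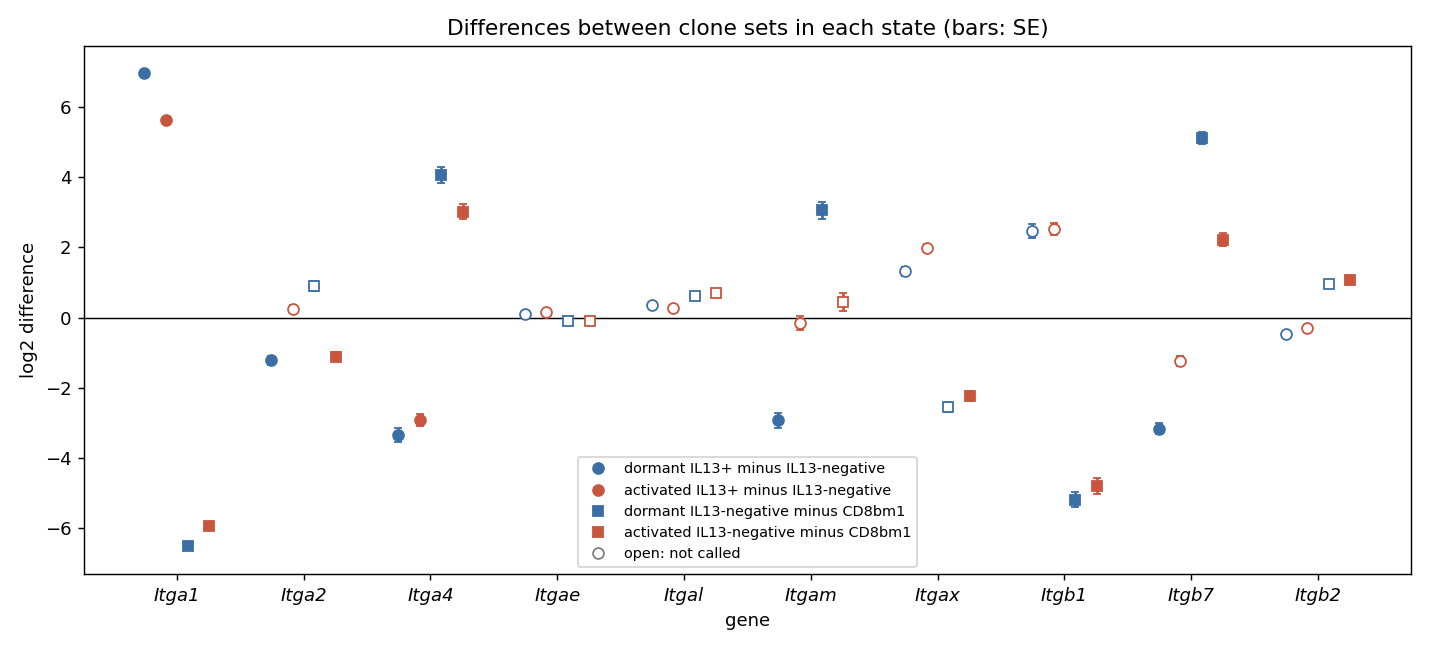
Log2 differences of each integrin gene between sets of clones (vertical axis): IL13+ minus IL13-negative (circles) and IL13-negative minus CD8bm1 (squares), dormant blue and activated red; bars are SE and open symbols are not called. Itga1 is far above 0 for the first comparison and far below for the second, and Itga4 the reverse; the comparisons share the IL13-negative arrays.

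Other integrin chains were measured for 16 of 16 listed genes. Itgav, the alpha chain of vitronectin receptors, was between 10.11 and 12.69 and its partner Itgb3 between 8.19 and 11.32 in group means, while Itgb6 and Itgb8, the partners in activating TGF-beta, were at 5.73 or less. For the activation mean 0 of the 16 were called by limma as deposited, against 6.19% of all probe sets, and 1, Itga8, was called lower after centring (-1.34) and quantile normalization (-1.30). Itgb3 fell in sAg1 (-1.84), 8uvmo-2 (-2.29) and 8uvmo-3 (-1.25), the clones in which Itgb7 fell, and its differences in sAg3 (0.03, or -0.38 after centring) and CD8bm1 (0.46) were not called. Dormant IL13+ minus IL13-negative called Itgav higher (1.52 ± 0.067, adjusted p = 1.06e-19) and Itga8 lower (-2.05 ± 0.096, adjusted p = 6.32e-19), 2 of 16 against 3.35% of all probe sets. The median difference of the list was 0.52 for the activation mean and 0.03 for dormant IL13+ minus IL13-negative, against 0.35 and 0.03 over all probe sets.

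Of 19 listed ligands 18 were measured. Icam1, the ligand of LFA-1, was the single ligand called for the activation mean, at 1.05 ± 0.062 (limma, adjusted p = 3.09e-17) as deposited and 0.65, not called, after centring. That 1 of 18 stands against 4.56% of all probe sets called higher, near the background. Dormant group means of Icam1 were 8.92 to 9.42 and activated ones 9.97 to 10.78. Cdh1, the E-cadherin ligand of CD103, was called higher in sAg3 than in sAg1 (2.07 dormant, 1.43 activated) and higher in dormant 8uvmo-3 than in 8uvmo-2 (1.60). Between the phenotypes 0 of 18 ligands were called by limma, dormant or activated, where 3.35% and 1.75% of all probe sets were called, so a count of 0 is near the background, and the medians there were 0.11 and 0.07 against 0.03 and 0.02 over all probe sets.

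Inside-out signalling, which switches integrins to high affinity through Rap1 and talin, was measured for 24 of 24 listed genes. Of these, 3 fell in the activation mean and 0 rose, against 1.64% of all probe sets lower and 4.56% higher. They were Skap1 (-1.70 ± 0.062), an adaptor of the Rap1 complex, Rasgrp2 (-1.65 ± 0.067), the Rap1 exchange factor CalDAG-GEFI, and Rasa3 (-1.03 ± 0.079), a GTPase activating protein for Ras and Rap, with adjusted p of at most 3.35e-14. All held after centring and quantile normalization, and the median of the whole list was 0.01 against 0.35 over all probe sets. Rasgrp2 was lower in dormant IL13+ than IL13-negative clones (-1.16 ± 0.11, adjusted p = 9.02e-11), and its activation effect differed between them by 1.20 ± 0.15 (adjusted p = 1.72e-07). Its activated means lay near or below level 7, at 6.92 in sAg1, 6.68 in sAg3, 6.45 in 8uvmo-2 and 7.07 in 8uvmo-3. The difference in activation effect therefore cannot be told apart from the dormant difference. Talin itself, Tln1, was between 10.86 and 11.54 and the kindlin of blood cells, Fermt3, between 11.12 and 11.48 in all group means.

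Outside-in signalling, the path from a bound integrin to the cytoskeleton, was measured for 21 of 24 listed genes. Vcl (vinculin, 1.21 ± 0.06) and Actn1 (alpha-actinin, 1.14 ± 0.061) were called higher in the activation mean as deposited, 2 of 21 against 4.56% of all probe sets, and neither after centring (0.81 and 0.74) or quantile normalization (0.93 and 0.71). Bcar3, an adaptor of the Cas complex, was higher in IL13+ than IL13-negative clones in the activated state by 2.85 ± 0.086 (adjusted p = 2.67e-24), with activated means of 9.15 in sAg1, 10.61 in sAg3 and 9.94 in CD8bm1 against 7.36 in 8uvmo-2 and 6.69 in 8uvmo-3. As with Itga1, sAg1, sAg3 and CD8bm1 were above both IL13-negative clones, in another order among themselves. The list's median for the activation mean was 0.40 against 0.35 over all probe sets.

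Regulators of integrins in resident T cells were measured for 17 of 18 listed genes. Tgfbr1, the signalling chain of the TGF-beta receptor that drives CD103, fell by 1.36 in the activation mean (SE 0.075, adjusted p = 4.02e-18) and held in both other scalings. It was the 1 of 17 called there, against 1.64% of all probe sets lower. It was lower in dormant IL13+ than IL13-negative clones (-2.08 ± 0.12, limma, adjusted p = 4.12e-16), whereas Tgfbr2 was higher in activated IL13+ clones (1.43 ± 0.074, adjusted p = 1.26e-17). The largest called dormant difference of the list was S1pr1 (-4.21 ± 0.13, adjusted p = 1.94e-24), a lower bound of the size. On activation S1pr1 was called lower in 8uvmo-2 (-3.34), 8uvmo-3 (-2.70) and CD8bm1 (-1.45) and higher in sAg3 (1.31). The sAg3 means were 5.95 dormant and 7.26 activated, so that rise began below 7. The median shift of all probe sets in sAg3 was 0.329, and 0.58 at a level of 5 to 6. Smad3, which carries the TGF-beta signal to the nucleus, was lower in sAg3 than in sAg1 by -2.84 dormant and -3.73 activated. Eomes was higher in sAg3 than in sAg1, by 3.81 dormant and 2.74 activated. Runx3, a regulator of CD8 T cells known to act on Itgae, was between 10.26 and 10.87 in all group means, while Itgae stayed below 7. Ahr was lower in activated IL13+ clones (-2.04 ± 0.067, adjusted p = 4.01e-23). The list's median for the activation mean was 0.26 against 0.35 over all probe sets.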

How the data were processed

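Messenger RNA of mouse CD8 T cell clones was measured on 38 arrays, 1 per RNA sample, from 100 ng of total RNA with the WT Plus kit, per the labels. The deposited values are log2 probe set levels. The submitters' processing notes name RMA (robust multi-array averaging) and Partek but no version. The genome build is not given in the sources used here. Precision is limited by the 3 or 4 arrays of a group. Robust averaging can compress differences at both ends of the range.

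Groups came from the labels. Each of 23410 named probe sets (of 35556 in the table) was fitted with limma 3.58.1 in R 4.3.3, with 1 mean per group, moderated variances with a trend and Benjamini-Hochberg adjustment over all of them, two-sided. A result was called where the adjusted p was below 0.05 and the log2 difference was 1 or more in size. For comparisons over several clones it also needed an equal direction in all 5 clones (activation mean), or clone values of both sides that lay apart. Every clone had equal weight. Errors are standard errors (SE) of the fitted difference.

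The members, the gene lists and the tests were chosen with earlier results of these data known. Named genes were the 10 members, the 3 genes most correlated with each member that spanned at least 2 log2 units over the 10 group means, up to 4 called genes per list and comparison, and known partners and regulators. Genes next to a member, the other marker genes and Cd2 and Cd5 were named after their values were seen. Gene neighbours, chromosomes and promoters come from RefSeq tables of GRCm38.p6. The procedure was tested on simulated data.

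Replicate numbers in the titles were checked as pairs: over 18 dormant and activated pairs of 1 clone and number, deviations from the group means correlated at -0.236 to 0.268, with 7 over 0.1. All 4 pairs of 8uvmo-2 were over 0.1 (0.113 to 0.237), so the numbers were taken to pair its arrays by this hint from the data, and in the other clones they were not. Alternatives covered the minimum difference, limma's treat test, median centring, quantile normalization, a filter on dim probe sets, all rows, the variance model, array weights, subsets of arrays, the clone condition, replicate blocks, clone means as replicates and each array left out. The comparison of activation effects between 8uvmo-3 and 8uvmo-2 was added after the data were seen.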

Additional observations from a re-analysis of the deposited data

Results flagged for a closer look

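Among 80 groups of 4 arrays (10 genes in 8 groups), 9 held an array whose gap to the nearest other exceeded Dixon's 95% critical value for 4 samples. Chance flags about 1 group in 20. Activated 8uvmo-2 replicate 3 was at 8.35 for Itgb1, against 6.26 to 6.55, and activated sAg3 replicate 1 at 6.83 for Itgam, against 5.76 to 5.78. These 2 arrays also had the highest sums of macrophage and dendritic cell markers of their groups (4630 and 3090). The 8uvmo-2 array had the highest stromal cell marker sum of its group as well (1210). In dormant CD8bm1, replicate 3 was at 8.26 for Itga2, against 9.13 to 9.20, and replicate 2 at 7.56 for Itgb7, against 6.61 to 6.69. The other 5 lay within 0.3 log2 units of their companions: Itga4 at 5.98 in activated sAg1 replicate 4 (others 6.22 to 6.26), Itgae at 6.29 in activated 8uvmo-2 replicate 1 (6.09 to 6.12), Itgal at 12.85 in dormant 8uvmo-2 replicate 1 (12.70 to 12.72), Itgb7 at 12.29 in dormant 8uvmo-3 replicate 4 (12.36 to 12.37) and Itgb7 at 7.88 in activated 8uvmo-2 replicate 2 (8.08 to 8.12).

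Activation effects differed between clones or phenotypes, by a test of the difference itself, in 10 cases. Between IL13+ and IL13-negative clones these were Itga1 (-1.32), Itga2 (1.47) and Itgam (2.78). Between sAg3 and sAg1 they were Itgam (1.45) and Itgb7 (3.10). Between 8uvmo-3 and 8uvmo-2 they were Itga4 (-2.71), Itgam (2.63), Itgax (1.23), Itgb1 (-1.29) and Itgb7 (1.22). The Itga1 and Itgam values rest in part or fully on levels below 7.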

How the results depend on the processing

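Of 56 calls of members in 19 comparisons none reversed in any alternative. Without a minimum difference the counts of members called were 3 (activation mean), 8 (sAg1), 7 (sAg3), 7 (8uvmo-2), 8 (8uvmo-3) and 5 (CD8bm1) for activation, 4 for activated IL13+ minus IL13-negative, 4 dormant and 5 activated for IL13+ minus CD8bm1, 8 for dormant IL13-negative minus CD8bm1, 6 for activated sAg3 minus sAg1, 8 dormant and 7 activated for 8uvmo-3 minus 8uvmo-2, and 4 for the activation effect of sAg3 minus sAg1. With limma's treat test against a difference of 1, 37 calls held. Activation then called 1 in sAg1 (4.05%), 0 in sAg3 (0.718%), 1 in 8uvmo-3 (3.99%) and 1 in CD8bm1 (1.58%). Under treat the activation effects differed in 1 (phenotypes, 0.414%), 1 (sAg3 minus sAg1, 1.2%) and 2 (8uvmo-3 minus 8uvmo-2, 0.572%). Centring gave 1 for the activation mean (6.62%) and 4 for sAg1 (all lower, 10.3%), and 53 calls held. Under quantile normalization 52 calls held, with 1 for the activation mean (4.49%) and 1 for activated IL13+ minus CD8bm1 (4.1%). Array weights also gave 1 for the latter comparison (3.66%). Without the condition on clones the counts were 2 (activation mean, 6.63%) and 5 (activated IL13+ minus IL13-negative, 2.64%). For IL13+ minus CD8bm1 they were 3 dormant (7.77%) and 1 activated (4%). With clone means as replicates, IL13+ minus IL13-negative gave 1 dormant (0.154%), 1 activated (0.0256%) and 0 for the activation effect (0%). The replicate block over all arrays changed no call, and a replicate block within clone left 1 member in sAg1 and kept the 3 calls in 8uvmo-2, the clone whose numbers pair.

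With each array left out the counts ran as follows: activation mean 0 to 0, sAg1 1 to 2, sAg3 1 to 2, 8uvmo-2 2 to 4, 8uvmo-3 4 to 4 and CD8bm1 2 to 2. IL13+ minus IL13-negative gave 5 to 5 dormant and 2 to 2 activated, IL13+ minus CD8bm1 0 to 1 in both states, and IL13-negative minus CD8bm1 5 to 6 dormant and 7 to 7 activated. sAg3 minus sAg1 gave 3 to 4 dormant and 3 to 3 activated, and 8uvmo-3 minus 8uvmo-2 4 to 4 dormant and 4 to 5 activated. The activation effects gave 3 to 3 (phenotypes), 2 to 3 (sAg3 minus sAg1) and 4 to 5 (8uvmo-3 minus 8uvmo-2). Of the 56 calls, 5 were lost in some such fit. Leaving out dormant 8uvmo-2 replicates 1 and 3 together ended the Itga4 call in 8uvmo-2, and leaving out replicates 2 and 4 ended the Itgax call in activation effect. Causes of these shifts were not tested beyond the construction of each setting.

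Levels below 7 limit what can be said of Itgae in every clone, of Itga1 in the IL13-negative clones and of Itga4 and Itgam in most groups. Each phenotype rests on at most 2 clones, and 1 probe set stands for each gene.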

Other observations

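The chromosome 13 and chromosome 7 integrin genes were neighbours with unlike patterns. Over the 10 group means the correlation of Itga1 and Itga2 was -0.16 and that of Itgam and Itgax -0.12, as a description of 5 clones in paired states. The widest correlations among members were -0.85 for Itga1 and Itga4 and 0.80 for Itga4 and Itgb2. Cerkl, beside Itga4, was at 7.88 in dormant 8uvmo-3 and 7.36 in dormant sAg1, where Itga4 was at 11.60 and 6.25. Rarg, beside Itgb7, was at 9.14 in dormant 8uvmo-3, 8.56 in sAg1 and 8.07 in 8uvmo-2, against 7.43 in sAg3 and 7.23 in CD8bm1, which is the split of the clones seen in Itgb7.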
